A study of Drosophila melanogaster with 43 samples.

Results

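The 10 genes described here take part in forming the mesoderm and in joining myoblasts into muscle fibres. They are the transcription factor genes twi, btn, sna and Mef2, the fibroblast growth factor (FGF) receptor gene htl and its adaptor stumps, and the adhesion receptor genes kirre, rst, hbs and sns. They were chosen by name, with the difference between S2 cells that carry Orb2B and background S2 cells in view, so their values in S2 cells are given as a description without a test. All 10 were found among the 13792 genes of the S2 libraries and among the 14410 features of the head libraries, where a feature is a gene or a set of genes that the files joined.

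The series of 43 samples is about Orb and Orb2, Drosophila members of the CPEB family of RNA-binding translational regulators. S2 cells are a cultured Drosophila line of embryonic origin with features of blood cells. Of the S2 libraries, 2 came from background cells, described in the design as untransfected and given 250 µM copper sulfate at 27 °C. The other 2 came from cells overexpressing Orb2B, a form of Orb2, which received the same copper sulfate and temperature and also 300 µg/ml hygromycin B. Whether the Orb2B line was 1 clone or a pool is not given. The head libraries came from flies of genotype Orb2 WT-GFP raised at 25 °C, whose head extract was precipitated with biotinylated isoxazole (b-isox), a compound that brings down low-complexity proteins and the RNA bound with them. The pellet and the supernatant were sequenced, and replicates 1 to 4 of each carried gene names and were used. The labels give no age, sex or number of flies and do not say whether replicates were separate cultures or animals, and p-values therefore rest on a spread between libraries that may be technical.

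In the fly embryo, twi encodes a basic helix-loop-helix protein that specifies the mesoderm and activates sna, htl, stumps and Mef2. Cells that receive FGF through the Htl receptor, with Stumps as its cytoplasmic adaptor, spread beneath the ectoderm. Muscles then form from founder myoblasts, which carry the immunoglobulin proteins Kirre and Rst, and from fusion-competent myoblasts, which carry Sns and Hbs. Binding between these receptors lets the cells recognise each other and fuse. The adhesion receptors also serve outside muscle, in the sorting of cells in the developing eye and in the filtration diaphragm of nephrocytes.

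Between 6670 and 7129 genes reached 1 RPKM in an S2 library (RPKM is the number of reads scaled to gene length and to library depth). The deposited S2 tables give no read totals. The steps between low RPKM values imply relative depths of 0.783, 0.982 and 1.66 for background 2, Orb2B 1 and Orb2B 2 against background 1. Together with gene lengths they imply 13100000 to 27700000 reads a library, which is inferred here and not stated by the authors. As a check of the labels, background libraries had 7.50 and 8.73 RPKM of orb2, and Orb2B libraries had 2509 and 2850 RPKM. The Orb2B construct, the transfection and hygromycin B came together in both Orb2B libraries and cannot be told apart.

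Among the transcription factors, twi and btn were far higher in Orb2B cells, Mef2 was lower and sna was near 0 in both groups. The twi gene lies on chromosome 2R from 18933631 to 18935849 (dm3 build, as the files give it). Its level was 14.1 and 9.43 RPKM (background) and 241 and 210 RPKM (Orb2B), a ratio of scaled means of 19.8. Its log2 difference of 4.28, computed on scaled RPKM plus 0.5, was exceeded by 7 of the 7069 genes that passed the minimum scaled mean of 1. The groups lay far apart and both Orb2B libraries were high. Within a library, twi stood above 65.6% to 73.3% of the genes in background and above 97.2% to 97.7% in Orb2B cells.

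The homeobox gene btn (buttonless) is known from the dorsal median cells, mesodermal cells of the embryonic midline. It had the highest level of the 10 genes in both S2 groups, with 20.6 and 13.4 RPKM (background) and 389 and 344 RPKM (Orb2B). The background levels of btn and twi overlapped, whereas their Orb2B levels did not. The ratio of scaled means of btn was 22.3 and its log2 difference was 4.48, and 6 tested genes had a larger difference. Both genes were lower in background replicate 2 than in background replicate 1. The btn gene lies on chromosome 3R from 18411871 to 18412347, a span of 477 bp, of which 61 bp overlap CG6937. CG6937 was at 54.4 and 50.0 RPKM (background) and at 127 and 121 RPKM (Orb2B) (log2 difference 1.30, SE 0.19, limma adjusted p = 0.00192). The sources used here do not say whether reads were counted by strand, so the part of the overlap in the btn values was not tested.

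Mef2 encodes a MADS-box factor needed for muscle differentiation. It was at 8.20 and 8.40 RPKM (background) and at 3.65 and 5.17 RPKM (Orb2B). The groups did not overlap and Mef2 was lower in both Orb2B libraries, and the scaled mean of background was 1.82 times as high (log2 difference -0.81). With 2 libraries a group, a lack of overlap is a description, and the share of all genes without overlap is not given here. Without Orb2B replicate 1 the log2 difference of Mef2 was -0.63, and with quantile normalization it was -0.54. Of the 7069 genes, 16.4% had a lower difference than Mef2, so its place was not at an end of the distribution. The zinc-finger repressor gene sna, on chromosome 2L from 15476593 to 15478269, was listed at 0 in 3 libraries and at 0.0430 RPKM in Orb2B replicate 2. No fold is given for it.

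**Figure D1:**
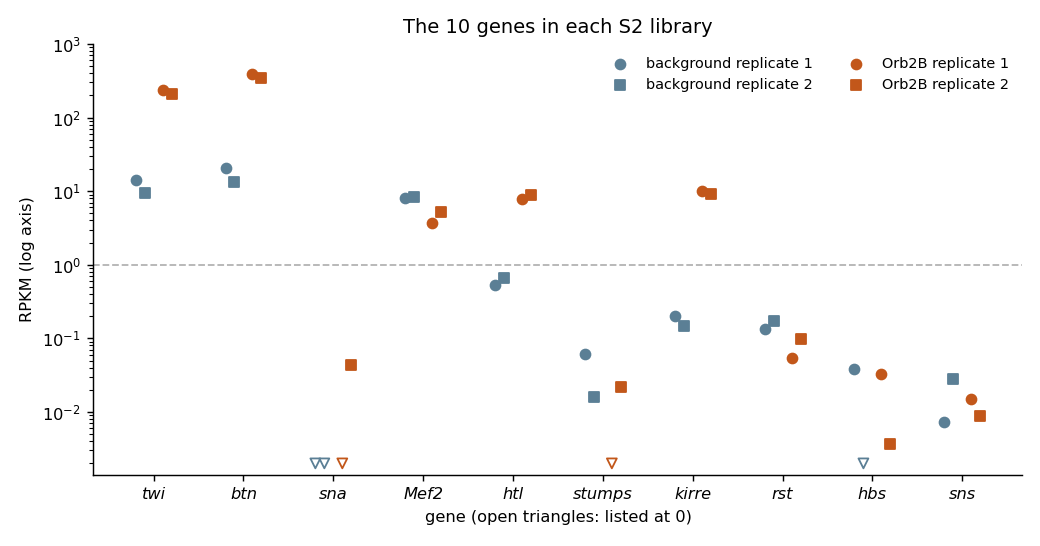
RPKM of each of the 10 genes in the 2 background and 2 Orb2B libraries of S2 cells, on a log axis, with open triangles for values listed at 0 and a dashed line at 1 RPKM. For twi, btn, htl and kirre both Orb2B libraries stand above both background libraries, Mef2 has the opposite order, and sna, stumps, rst, hbs and sns stay below 0.173 RPKM in every library.

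The FGF receptor and its adaptor did not show the same pattern. The htl gene, on chromosome 3R from 13870936 to 13878706, was at 0.526 and 0.653 RPKM (background) and at 7.92 and 8.77 RPKM (Orb2B). Both Orb2B libraries were high, the ratio of scaled means was 14.8 and the log2 difference was 3.06. In Orb2B cells htl stood above 66.9% to 67.2% of genes, against 44.9% to 46.6% in background. The adaptor gene stumps, on chromosome 3R from 10402941 to 10433804, was at 0.0620 and 0.0158 RPKM (background) and at 0 and 0.0216 RPKM (Orb2B). The groups overlapped and stumps was at the bottom of the order of the 10 genes in Orb2B cells, where it did not stand apart from sns, hbs and sna. The stumps values were too low for a fold to be read.

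Of the 4 adhesion receptors, kirre alone was above 1 RPKM in any S2 library. It was at 0.202 and 0.149 RPKM (background) and at 10.1 and 9.14 RPKM (Orb2B). The ratio of scaled means was 56.9, the highest of the 10 genes, while its log2 difference of 3.94 was below those of twi and btn, since the added 0.5 understates the change of low genes. With an added value of 0.1 the log2 difference of kirre was 5.19 and with 1 it was 3.20. In Orb2B cells kirre stood just above htl, and in background cells its range overlapped that of rst.

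The other founder-cell receptor gene, rst, was at 0.135 and 0.172 RPKM (background) and at 0.0549 and 0.0975 RPKM (Orb2B). These groups did not overlap, but the values correspond to at least 5, 5, 2 and 6 reads in background 1, background 2, Orb2B 1 and Orb2B 2, and no fold is read from them. The fusion-competent-cell gene hbs was at 0.0379 and 0 RPKM (background) and at 0.0323 and 0.0037 RPKM (Orb2B). The other fusion-competent-cell gene, sns, was at 0.0073 and 0.0279 RPKM (background) and at 0.0148 and 0.0088 RPKM (Orb2B). The sns values correspond to at least 1, 3, 2 and 2 reads. For hbs and sns the groups overlapped.

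The place of kirre and rst in the genome bears on how their values can be read. On the X chromosome, kirre spans 394149 bp from 2634417 to 3028565, and the whole of rst, from 2845881 to 2867867, lies inside it. Another 18 genes lie wholly inside the kirre span, of which 16 were under 1 RPKM in all 4 libraries and 2 were above the minimum. One of these, CG3603, was at 2.64 and 3.62 RPKM (background) and at 3.86 and 3.08 RPKM (Orb2B) (log2 difference 0.19, SE 0.25, limma adjusted p = 0.585). The other, CG14419, was at 101 and 100.2 RPKM (background) and at 0.0834 and 0.592 RPKM (Orb2B), the opposite direction to kirre (log2 difference -6.96, SE 0.29, limma adjusted p = 1.99e-05). Syx4, a syntaxin gene that overlaps 3693 bp at one end of kirre, had a log2 difference of 0.32 (SE 0.27, limma adjusted p = 0.385). Neither of the 2 tested genes inside the kirre span rose, while the other 16 and rst were too low for a difference to be read. Only genes with an entry of their own in a head library and a value in S2 cells were looked at.

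The profiles of twi and kirre over the 4 S2 libraries were compared with those of all tested genes by Euclidean distance between centred log2 values. Nearest to twi was btn, at a distance of 0.20, followed by trol at 0.48, kirre at 0.53, CG14397 at 0.59 and CG4096 at 0.79. Nearest to kirre was trol, at 0.15, followed by CG4096 at 0.39, twi at 0.53, CG7056 at 0.60 and CG14397 at 0.61. By distance to kirre, btn ranked 7, htl ranked 13 and Mef2 ranked 5905. By distance to twi, htl ranked 21 and Mef2 ranked 5888. The genes were chosen with this same S2 difference in view, so these ranks add no support to it. The gene trol encodes perlecan, a heparan sulfate proteoglycan of the extracellular matrix, and was at 0.906 and 0.851 RPKM (background) and at 21.6 and 21.6 RPKM (Orb2B). CG14397 was listed at 0 in background and at 10.5 and 11.1 RPKM in Orb2B cells. CG4096 was at 1.55 and 1.43 RPKM (background) and at 25.4 and 19.9 RPKM (Orb2B). CG7056 was at 17.6 and 12.6 RPKM (background) and at 186 and 144 RPKM (Orb2B). Likeness over 4 libraries in 2 groups mostly reflects the size of the difference between the groups, and the distances are a description.

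**Figure D2:**
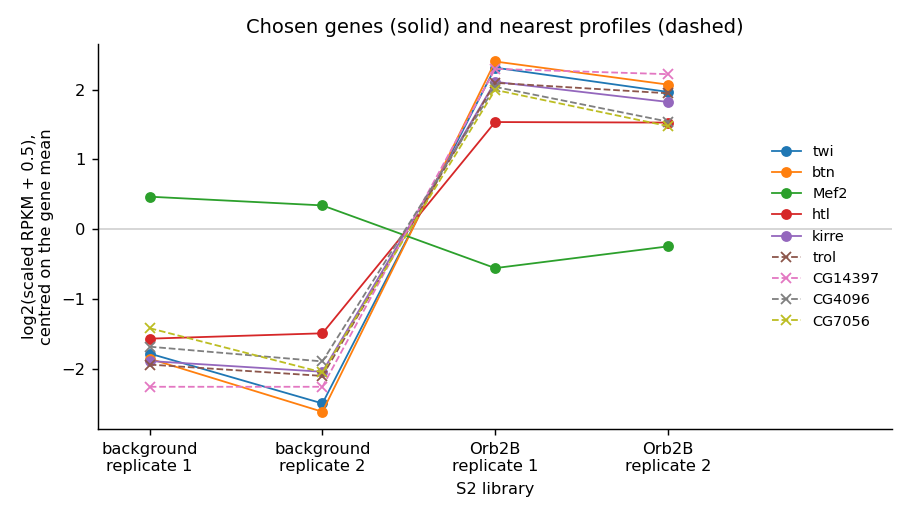
Log2(scaled RPKM + 0.5) of the 5 chosen genes above the minimum (solid lines) and of the other genes nearest to twi or kirre (dashed lines) in each S2 library, centred on each gene's mean over the 4 libraries. The lines of twi and btn run side by side, with a lower value in background replicate 2 than in replicate 1, and Mef2 runs the other way.

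Genes around the 10 were taken from 6 lists of related function, which do not hold the 10 themselves. Of 159 listed genes found in S2 cells, 96 passed the minimum, 21 rose, 18 fell and 57 did not pass (limma, adjusted p under 0.05). These are 21.9% rising and 18.8% falling, against 17.0% and 19.8% of all tested genes, so the lists together were close to the background. Their median log2 difference was 0.10, against 0.00 over all tested genes. The lists differed among themselves, as described next by role.

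Among mesoderm and muscle-lineage transcription factors, 10 of 32 were above the minimum, 4 rose, 2 fell and 4 did not pass, with a median of 0.00. The zinc-finger homeobox gene zfh1, which maintains undifferentiated mesodermal cells, was at 174 and 122 RPKM (background) and at 524 and 479 RPKM (Orb2B) (log2 difference 1.84, SE 0.26, limma adjusted p = 0.00175). The gene emc, whose product binds and inhibits basic helix-loop-helix proteins, rose by 1.63 on the log2 scale (limma adjusted p = 0.00109). The T-box gene org-1 was at 4.88 and 9.72 RPKM (background) and at 0.0290 and 1.15 RPKM (Orb2B) (log2 difference -2.97, limma adjusted p = 0.00404). Upstream of twi in the embryo, dl (Dorsal) was at 29.2 and 34.0 RPKM (background) and at 7.70 and 11.5 RPKM (Orb2B), and fell by 1.63 on the log2 scale (limma adjusted p = 0.00108). The other 22 genes of this list, among them the heart and visceral muscle factors tin, bap and bin and the relatives of sna, wor and esg, had a scaled mean under 1. With no filter on low values, 2 genes of this list were called.

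In the FGF receptor and Ras/MAPK list, 22 of 24 genes were above the minimum, of which 8 rose, 0 fell and 14 did not pass. The share of 36.4% rising was above the 17.0% of all tested genes and the median log2 difference was 0.47. Of the 2 ligands of Htl, pyr was at 3.28 and 4.16 RPKM (background) and at 9.39 and 9.47 RPKM (Orb2B) (log2 difference 1.30, SE 0.20, limma adjusted p = 0.00278), while ths was under the minimum. The other fly FGF receptor gene, btl, was also under the minimum. The antagonist gene sty (sprouty), a feedback inhibitor of receptor tyrosine kinase signalling, was at 157 and 203 RPKM (background) and at 545 and 658 RPKM (Orb2B) (log2 difference 1.80, SE 0.19, limma adjusted p = 0.000548). The Ets repressor gene aop (Yan) rose by 1.23 (limma adjusted p = 0.00157). The heparan sulfate proteoglycan gene dally, of a family that assists FGF binding, rose by 1.76 (limma adjusted p = 0.00145). The 8 calls became 13 without background replicate 2, 6 without Orb2B replicate 1 or without Orb2B replicate 2, and 2 with no filter on low values.

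The gastrulation list had 15 of 16 genes above the minimum, of which 2 rose, 1 fell and 12 did not pass (13.3% and 6.67%), with a median of -0.18. The secreted ligand gene fog and the transmembrane protein gene T48, both targets of Twist in the embryo, rose by 0.91 and 0.97 on the log2 scale (limma adjusted p = 0.00743 and 0.0118). The kinase gene Abl had a log2 difference of -0.62 (limma adjusted p = 0.0293). All 3 lost the call whichever Orb2B replicate was left out. The list had 6 calls without background replicate 1 (2 higher and 4 lower), 5 without background replicate 2 (3 higher and 2 lower) and 0 with no filter on low values, so its balance of directions rests on single libraries.

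Of the myoblast fusion machinery, which links the adhesion receptors to actin, 25 of 27 genes were above the minimum, 5 rose, 4 fell and 16 did not pass (20.0% and 16.0%), with a median of 0.14. The adaptor gene dock was at 8.16 and 11.9 RPKM (background) and at 20.7 and 23.3 RPKM (Orb2B) (log2 difference 1.17, SE 0.20, limma adjusted p = 0.00371). Among subunits of the actin regulator WAVE complex, HSPC300 was at 449 and 386 RPKM (background) and at 67.2 and 89.2 RPKM (Orb2B) (log2 difference -2.36, limma adjusted p = 0.000304), and Hem had a log2 difference of -1.83 (limma adjusted p = 0.00126). In the main fit the subunits did not move together, since SCAR, the WAVE protein gene itself, rose by 1.04 (limma adjusted p = 0.0231). SCAR was at 34.7 and 71.1 RPKM (background) and at 102 and 95.7 RPKM (Orb2B), and lost its call without Orb2B replicate 1. Abi and Sra-1 had log2 differences of 0.26 and -0.47 that did not pass (limma adjusted p = 0.331 and 0.156). The small GTPase gene Arf51F had a log2 difference of -0.77 (limma adjusted p = 0.0162), a call lost whichever Orb2B replicate was left out. The 9 calls of this list became 3 without Orb2B replicate 1, 4 without Orb2B replicate 2 and 0 with no filter on low values. The scaffold gene rols, which acts in founder cells beneath Kirre and Rst, was under the minimum.

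Among other immunoglobulin and cell adhesion genes, 17 of 31 were above the minimum, 1 rose, 8 fell and 8 did not pass. The share of 47.1% falling was above the 19.8% of all tested genes, and the median log2 difference was -0.50, opposite in sign to that of kirre. The secreted immunoglobulin protein gene Ama was at 168 and 189 RPKM (background) and at 0.533 and 8.11 RPKM (Orb2B) (log2 difference -5.87, SE 0.78, limma adjusted p = 0.00148). The septate junction gene Cont and the cytoplasmic adaptor gene cindr had log2 differences of -1.29 and -1.22 (limma adjusted p = 0.00385 and 0.0016). The neuroglian gene Nrg rose by 1.30 (limma adjusted p = 0.0019). With no filter on low values this list had 6 calls, 3 higher and 3 lower. In the sarcomere list, 7 of 29 genes were above the minimum, 1 rose and 3 fell (14.3% and 42.9%), with a median of -0.55. The actin gene Act79B had a log2 difference of -2.25 (limma adjusted p = 0.000474), paramyosin (Prm) had -1.76 (limma adjusted p = 0.00644) and Zasp52 had -0.81 (limma adjusted p = 0.0106), while the tropomyosin gene Tm1 rose by 0.66 (limma adjusted p = 0.0258). Zasp52 and Tm1 lost the call whichever Orb2B replicate was left out, and 1 gene of the list was called with no filter on low values. Muscle myosin heavy chain (Mhc), titin (sls) and the troponins had scaled means under 1, so most defining genes of differentiated muscle stayed under the minimum in S2 cells.

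**Figure D3:**
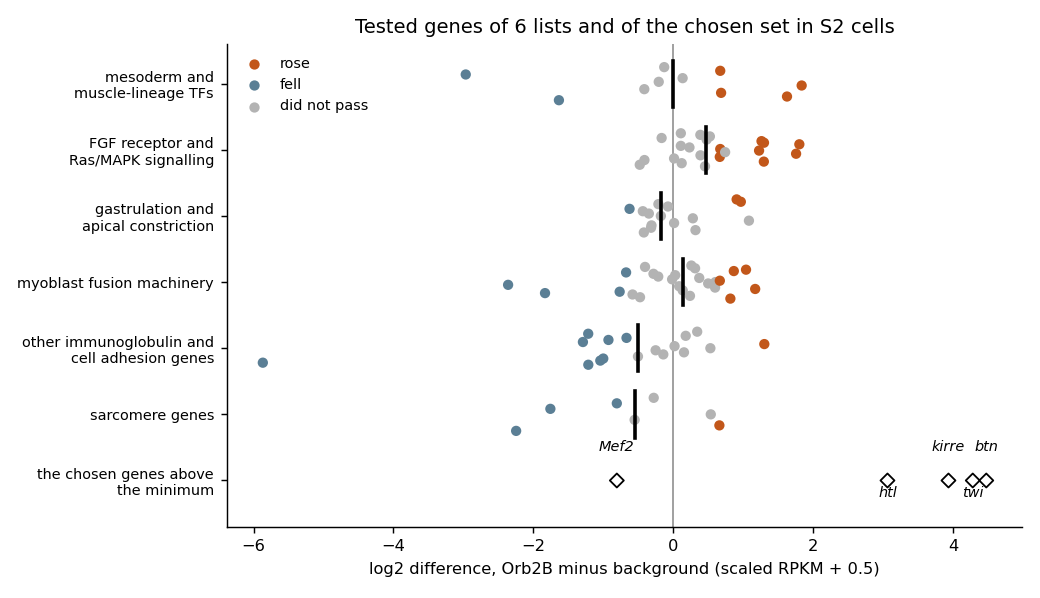
Log2 difference (Orb2B minus background) of each tested gene of the 6 lists in S2 cells, with bars at list medians, and of the 5 chosen genes above the minimum (open diamonds). The FGF receptor and Ras/MAPK list holds 8 rising and no falling genes, and the other immunoglobulin and cell adhesion list holds 1 rising and 8 falling genes.

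Markers of other cell types were set beside these values. The summed level of the 16 blood-cell markers was 338 to 454 RPKM in background and 203 to 271 RPKM in Orb2B cells, with gcm at 0 in all 4 libraries. Of 9 tested markers 5 fell and 0 rose. These are 55.6% falling and 0% rising, against 19.8% and 17.0% of all tested genes. Among those that fell was the prophenoloxidase gene PPO1, at 17.4 and 16.9 RPKM (background) and at 0 and 0.0770 RPKM (Orb2B) (log2 difference -5.01, limma adjusted p = 2.66e-05). Sr-CI, Hml and eater had log2 differences of -4.13, -3.75 and -2.90 (limma adjusted p = 6e-05, 0.000432 and 0.000474). The GATA factor gene srp, which defines the blood lineage, was still at 64.8 and 70.9 RPKM in Orb2B cells, against 113 and 122 RPKM in background. The summed sarcomere genes ranged from 83.9 to 97.7 RPKM in background and from 69.6 to 83.1 RPKM in Orb2B cells. Summed fat body markers went from 135 to 141 RPKM in background to 56.1 to 87.0 RPKM in Orb2B cells. Summed glia markers were at 57.3 to 74.6 and 53.1 to 53.7 RPKM. Summed neuron markers were higher in Orb2B cells, at 57.1 to 71.4 RPKM against 33.7 to 49.6 RPKM. Photoreceptor sums overlapped. The highest gene made up 98.8% of the fat body sum and 82.8% of the neuron sum. In these bulk libraries a change in the share of cells of a type and a change of RNA per cell cannot be told apart, and the part of the blood-cell markers in the values of the 10 genes was not tested.

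The genes were chosen with the S2 difference in view, and the difference between head pellet and supernatant was tested. Earlier results of these data were known at that choice, so the head p-values may not be independent of it. Muscles move the mouthparts and antennae, and the head also holds the eye and brain, where several of the receptors are known to act. The sarcomere list marks muscle tissue in these libraries, with 27 of 29 genes at 1 or more scaled FPKM in all 8 (FPKM is the number of fragments scaled to transcript length and to library depth). Each library was divided by a scaling factor. Without it the median log2 difference of all tested features was 0.87, so all head differences are relative to the median feature. Of 8608 tested features, 2.02% rose and 1.81% fell in the pellet. With the replicate number as a block, 7.02% rose and 7.71% fell. Overlap of the fractions and the number of pairs higher in the pellet are given below as a description. The share of all features with the same pattern is not given here.

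In every head library the 4 adhesion receptors were above 1 scaled FPKM. In S2 cells kirre alone was above 1 RPKM in any library. The kirre gene had scaled FPKM of 9.34, 8.34, 39.5 and 26.5 in supernatants 1 to 4 and of 20.1, 27.5, 28.0 and 62.6 in the pellets. It was the highest of the 10 genes in both fractions, and its fractions overlapped (log2 difference 0.87, SE 0.56, limma adjusted p = 0.392). The kirre pellet value exceeded that of the supernatant in 3 of 4 pairs of the same number.

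The nested gene rst had scaled FPKM of 2.77, 2.12, 4.00 and 3.33 in supernatants and of 4.37, 4.39, 5.21 and 5.01 in pellets. The rst fractions did not overlap, and 4 of 4 pairs were higher in the pellet, but the difference of 0.59 (SE 0.20) did not pass (limma adjusted p = 0.142). The hbs gene had scaled FPKM of 5.54, 7.20, 9.39 and 7.68 in supernatants and of 12.05, 12.4, 13.3 and 13.0 in pellets. All 4 hbs pellets lay above all supernatants and differed little from each other. The hbs difference of 0.75 (SE 0.18) had a limma adjusted p of 0.0589, and of 0.0328 with the replicate block. For sns the scaled FPKM was 4.86, 2.33, 9.21 and 7.00 in supernatants and 4.10, 8.13, 22.7 and 9.76 in pellets. The sns fractions overlapped, and the difference of 0.77 (SE 0.54) did not pass (limma adjusted p = 0.427).

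In the head fractions 7 of the 10 genes were above the minimum. The adaptor gene stumps, at most at 0.0620 RPKM in S2 cells, was the only one called by the main fit, which leaves the replicate number out. With the replicate block, stumps, Mef2 and hbs were called, in a fit that called 7.02% of all features higher and 7.71% lower. The scaled FPKM of stumps was 1.43, 1.05, 1.67 and 0.959 in supernatants and 2.58, 3.06, 3.56 and 2.71 in pellets. The stumps fractions did not overlap and all 4 pellets were high. It rose by 0.98 on the log2 scale (SE 0.21, limma adjusted p = 0.0444), and 4 of 4 pairs were higher in the pellet. This call is near the threshold: it was lost when any 1 of the 4 replicates was left out, with log2 differences of 0.90 to 1.08 and adjusted p of 0.0714 to 0.213. The receptor gene htl stayed under the minimum, with scaled FPKM of 0.0744 to 0.309 in supernatants and 0.0831 to 0.840 in pellets, and htl exceeded 25.0% to 39.0% of features within a head library.

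Of the transcription factors, Mef2 was joined with the neighbouring gene CG15863 in some head libraries, and the sum of both was used. Its scaled FPKM was listed at 0 in supernatants 1 and 2 and was 3.68 and 2.47 in supernatants 3 and 4, against 7.99, 10.8, 19.9 and 7.07 in pellets. The fractions did not overlap. The log2 difference was 3.05 (SE 0.77, limma adjusted p = 0.0721), and the adjusted p was 0.0403 with the replicate block. Entries marked as failed were taken as missing, so these values of 0 did not carry that mark. An exact 0 for a gene at this level can still be an estimate that went wrong, which was not tested. With the zeros taken as missing, which leaves 2 supernatants for Mef2, the log2 difference was 1.65 (limma adjusted p = 0.0907).

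Heads held little twi, with scaled FPKM of 2.30, 2.61, 0.489 and 0.128 in supernatants and of 6.00, 1.16, 0.224 and 0.800 in pellets. Replicates 1 and 2 were the higher supernatants and replicate 1 the highest pellet. The twi fractions overlapped and the difference of 0.23 (SE 0.78) did not pass (limma adjusted p = 0.887). The sna gene ranged from 0.0104 to 0.580 in supernatants and from 0.180 to 0.973 in pellets, under the minimum, although 4 of 4 pairs were higher in the pellet. The btn gene was listed at 0 in all 8 head libraries. The MAP kinase gene rl, which cells use widely, was listed at 0 in all 8 as well, so a 0 in these files need not mean a low level, and no level is read for btn in heads.

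**Figure D4:**
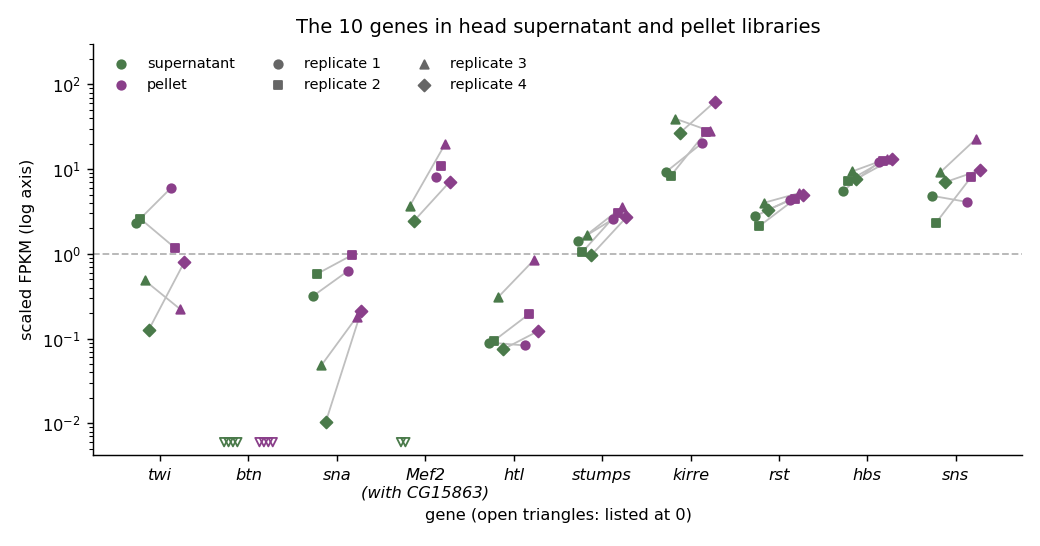
Scaled FPKM of the 10 genes in head supernatant (green) and pellet (purple) libraries on a log axis, with lines joining fractions of the same replicate number, open triangles for values listed at 0 and a dashed line at 1. The rst, hbs, stumps and Mef2 pellets lie above all their supernatants, kirre is highest in both fractions, and btn is listed at 0 throughout.

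Heads serve as a tissue reference for the levels in S2 cells, set by the place of each gene within its own library since the tables were normalized separately. The order of the genes differed between the materials. In Orb2B cells twi exceeded 97.2% to 97.7% of genes, while in heads twi exceeded 28.1% to 66.5% of features. The btn gene exceeded 98.3% to 98.5% of genes in Orb2B cells, and no place is read for it in heads. The adhesion genes hbs and sns exceeded 54.4% to 83.7% of features in heads and at most 33.2% of genes in S2 cells. For kirre, the S2 range of 67.3% to 69.9% in Orb2B cells lay just below the head range of 71.2% to 92.2%, and far above the 39.5% to 39.7% of background cells. For htl, Orb2B cells at 66.9% to 67.2% stood above every head library, which reached 39.0%. These places are a description, and the difference between materials was not tested.

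**Figure D5:**
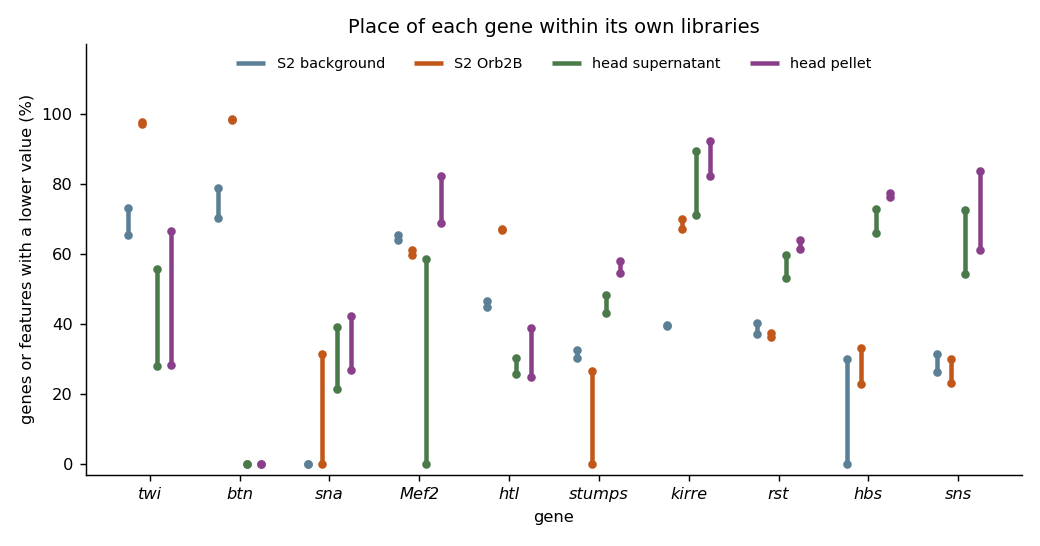
Share of genes (S2) or features (heads) with a lower value than each of the 10 genes, from the lowest to the highest library of each group. Orb2B cells are highest for twi and htl, btn is listed at 0 in heads, and head pellets reach highest for kirre, rst, hbs, sns, stumps and Mef2.

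The 6 lists gave the surroundings of these genes in heads. Of 158 listed genes found, 127 were tested, 11 rose and 0 fell, or 8.66% rising against 2.02% of all features, with a median log2 difference of 0.31 against -0.02. With the replicate block 29 of these 127 rose and 0 fell, against 7.02% and 7.71% of all features in that fit. The FGF receptor and Ras/MAPK list had 3 of 19 rising, namely sty by 1.40, the Ets activator gene pnt by 1.66 and aop by 1.25 on the log2 scale (limma adjusted p = 0.00382, 0.0147 and 0.0294). Mesoderm transcription factors had 3 of 15 rising, namely the T-box gene mid by 1.30, the LIM-homeobox gene tup by 1.36 and emc by 0.88 (limma adjusted p = 0.0159, 0.0144 and 0.0381). The gastrulation list had 2 of 15 rising, the myosin light chain gene sqh by 0.73 and the kinase gene Gprk2 by 0.99 (limma adjusted p = 0.0319 and 0.0191). Myoblast fusion genes had 1 of 21 rising, the kinase gene Pak3 by 0.88 (limma adjusted p = 0.0159). The other adhesion genes had 2 of 29 rising, dpr1 by 1.78 and the integrin gene mew, joined with CG15742, by 1.22 (limma adjusted p = 0.0163 and 0.00718). None of the 28 tested sarcomere genes was called in the main fit. With the replicate block 2 of the 28 rose, near the 7.02% of all features in that fit. Of these 11 genes, sty alone kept its call when each replicate was left out in turn. In the same fit 2 of 10 neuron markers rose, elav by 1.02 and Syt1 by 1.78 (limma adjusted p = 0.0218 and 0.0144), and the summed neuron markers ranged from 734 to 1665 in supernatants and from 1675 to 2413 scaled FPKM in pellets. The summed fat body markers ranged from 2932 to 3479 in supernatants and from 2031 to 2412 scaled FPKM in pellets, without overlap, and 1 of 8 tested fell, the yolk protein gene Yp1 (log2 difference -0.98, limma adjusted p = 0.00379). The part of tissue makeup in the head values of the 10 genes was not tested.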

How the data were processed

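For S2 cells the authors deposited RPKM per gene, and for heads they deposited FPKM per gene or assembled locus, per the file headers. Tools listed in the submitters' processing notes are Bowtie, CASAVA 1.9.1, Novoalign and cutadapt (S2) and Cufflinks, TopHat and CASAVA 1.9.1 (heads), with build dm3 and no role for each. Counting by strand is not given in the sources used here. Head replicates 5 and 6 held loci without gene names, and they and the crosslinking libraries were not analysed here. Head entries that joined several genes were merged, giving 14447 features. Values in all 8 libraries existed for 14410, and 949 of those were sets of genes.

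Libraries were divided by median-of-ratios factors (0.934 to 1.09 in S2 cells, 0.665 to 0.737 in supernatants and 1.27 to 1.65 in pellets). Where the scaled mean reached 1, limma 3.58.1 (R 4.3.3) was run on log2(scaled value + 0.5), two-sided, with a variance trend and Benjamini-Hochberg adjustment over all tested genes. An adjusted p under 0.05 was called. Such differences understate the change of low genes. The procedure was run on simulated data, drawn as independent normal values around the fitted means. These held no values listed at 0 and no pairing of fractions, so the run does not show how those bear on the calls. Python 3.11.15 with numpy 2.4.6, pandas 2.3.3 and, for figures, matplotlib 3.10.9 did the rest.

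The members, the lists and these tests were chosen with earlier results of these data known. The genes named were the 10, up to 4 called genes with the smallest p from each list (the 2 with the highest mean in a list with none called, which concerns sarcomere, blood-cell, glia and photoreceptor markers in heads), and the 5 genes nearest to twi and to kirre. From the cell type markers only those beside a result are given. CG6937, CG3603, CG14419 and Syx4 are named because they overlap a chosen gene. The list genes srp, ths, btl, rols, rl, SCAR, Abi, Sra-1, tin, bap, bin, wor, esg, Mhc and sls were named for their roles after their values were seen.

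Across features, the deviations of a pellet from its group mean correlated with those of the supernatant of its number (0.168, 0.193, 0.325 and 0.199 for replicates 1 to 4). From the data alone, the numbers may thus pair the head fractions. The main head fit did not use the number, and the fit with the replicate block, which does, is an alternative. The highest correlation with another number was 0.143 and 0.115 for pellets 1 and 2, which leaves their pairing uncertain. As alternatives the replicate block, each replicate left out, values as deposited, quantile normalization, pseudocounts of 0.1 and 1, a minimum of 5, no filter, no variance trend and features of 1 gene were tried. Treating an exact 0 as missing was chosen after seeing the data.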

Additional observations from a re-analysis of the deposited data

Results flagged for a closer look

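In 3 of 18 groups of 4 head libraries, 1 library stood far from the other 3, with a gap past Dixon's critical value for 4 samples. Chance flags about 1 in 20 such groups where values are normally distributed. The rate for scaled FPKM taken without a log, as here, was not tested. For twi in the pellets, replicate 1 was at 6.00 scaled FPKM and the others lay between 0.224 and 1.16. For htl, replicate 3 was the high library in both fractions, at 0.309 in the supernatants, where the others lay between 0.0744 and 0.0942, and at 0.840 in the pellets, where the others lay between 0.0831 and 0.196. The htl values are all under 1.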

How the results depend on the processing

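In S2 cells the log2 differences of twi, btn, htl and kirre lay between 2.59 and 5.19 in all 12 alternatives, and that of Mef2 stayed between -0.95 and -0.54. The 2604 S2 genes called became 407 with no filter on low values, and ranged from 1241 to 3350 when 1 library was left out. The 39 list genes called became 11 with no filter, and ranged from 22 to 52 when 1 library was left out. With no filter, which tests more genes, 18 of the 23 named S2 list genes lost their call. In heads the 330 features called became 4566 with values as deposited and 1268 with the replicate block, and ranged from 67 to 214 when 1 replicate was left out. Of the 10 genes, 1 (stumps) was called in heads, 0 with no filter, 6 with values as deposited (Mef2, stumps, kirre, rst, hbs and sns), 3 with the replicate block (Mef2, stumps and hbs), and 0 whichever replicate was left out. With a minimum of 5 the 1 gene called was hbs and not stumps, which was then not tested. For twi in heads the log2 difference ranged from -0.10 (without replicate 1) to 0.60 (without replicate 2) when 1 replicate was left out, and was -0.05 without replicate 4. The S2 numbers share only a number (correlation 0.0502 over 2 pairs), and the replicate block gave 3036 S2 calls. The cause of these changes was not tested. Depth limits what can be read for sna, stumps, rst, hbs and sns in S2 cells.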
